A study of Homo sapiens with 18 samples.

Results

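The PML and RARA loci are the partners of the chromosomal translocation that defines acute promyelocytic leukemia (APL), and their chromatin was followed here in NB4 cells, an established human APL line. Members were all peaks of 18 peak lists that overlapped PML (chr15:74287014-74340155, hg19) or RARA (chr17:38465423-38513895, hg19), each extended by 20 kb on both sides. This gave 103 of the 501863 peaks in the 18 lists, 32 in the PML window and 71 in the RARA window. The lists came from chromatin immunoprecipitation followed by sequencing (ChIP-seq) for the histone marks H3K4me3, H3K27ac and H3K9me3, with 3 libraries per mark of NB4 cells left untreated and 3 of NB4 cells exposed to 10 µM maltonis for 24 h. Maltonis is a synthetic molecule derived from maltol, and its stock was dissolved in distilled water. All 18 libraries came from 1 cell line. The study calls the replicates of each condition biological, while the labels do not say whether they were separate cultures, so p-values measure the spread between these libraries.

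PML encodes the scaffold protein of PML nuclear bodies and is a gene that interferons induce. RARA encodes retinoic acid receptor alpha, a nuclear receptor that binds DNA together with RXR and switches target genes on when retinoic acid is bound. In APL the translocation joins the 5′ part of PML to the 3′ part of RARA, and the resulting PML-RARA protein holds retinoic acid target genes in a repressed state. The fusion gene is read from the PML promoter, and a reciprocal gene can be read from the RARA promoter. Peaks do not separate the intact from the rearranged copy of either gene. H3K4me3 marks active promoters, H3K27ac marks active promoters and enhancers, and H3K9me3 marks silent heterochromatin.

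RefSeq start sites served as landmarks for the peaks around both genes. RefSeq lists 3 start sites for RARA, at 0, 9.07 and 32.99 kb from the first one, and 2 for STOML1, the gene that lies head to head with PML, at −2.42 and −0.094 kb from the RefSeq start of PML, where minus means upstream. These distances belong to GRCh38.p14 and the peaks to hg19. The annotated lengths of PML and RARA in both sources differ by 30 and 9 bases, so the landmarks are approximate. No PML entry was in the sequence table, so 1 of the 2 genes had a match. Upstream sequences of 250 bases are shown for the 3 RARA starts, because their H3K4me3 differed, and for the distal STOML1 start, because it lies in the interval where the H3K4me3 peaks of the PML window changed. They are RefSeq sequences of GRCh38.p14, written 5′ to 3′ on the strand of the gene, and capitals mark the GC box hexamer GGGCGG on either strand.
RARA start site 1, chr17:40308930-40309179, + strand: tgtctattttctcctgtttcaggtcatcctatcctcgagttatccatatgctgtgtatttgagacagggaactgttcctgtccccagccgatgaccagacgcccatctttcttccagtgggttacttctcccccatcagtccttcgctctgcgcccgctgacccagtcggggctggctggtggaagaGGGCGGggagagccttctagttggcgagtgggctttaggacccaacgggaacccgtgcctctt
RARA start site 2, chr17:40317995-40318244, + strand: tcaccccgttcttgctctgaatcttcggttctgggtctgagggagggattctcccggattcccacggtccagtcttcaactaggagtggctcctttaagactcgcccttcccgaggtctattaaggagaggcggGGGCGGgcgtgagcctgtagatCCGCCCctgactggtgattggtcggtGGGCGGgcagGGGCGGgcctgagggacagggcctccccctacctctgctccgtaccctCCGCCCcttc
RARA start site 3, chr17:40341916-40342165, + strand: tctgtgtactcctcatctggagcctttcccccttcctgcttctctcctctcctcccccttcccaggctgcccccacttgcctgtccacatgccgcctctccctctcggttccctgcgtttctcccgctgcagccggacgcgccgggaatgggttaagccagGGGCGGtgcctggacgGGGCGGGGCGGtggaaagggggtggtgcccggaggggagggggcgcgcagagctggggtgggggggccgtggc
STOML1 start site 1, chr15:73992296-73992545, - strand: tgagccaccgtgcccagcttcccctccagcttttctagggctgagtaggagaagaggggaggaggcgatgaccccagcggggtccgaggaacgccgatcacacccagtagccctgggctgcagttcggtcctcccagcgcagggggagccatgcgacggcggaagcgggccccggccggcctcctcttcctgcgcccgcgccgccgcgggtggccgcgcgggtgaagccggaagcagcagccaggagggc

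The GC box, the letters bound by Sp1 family factors, was found 1, 5 and 3 times upstream of the 3 RARA starts and 0 times upstream of the distal STOML1 start. Of the 35116 start sites in the table, 42.6% held it in the same 250 bases. AGGTCA, the hexamer recognised by many nuclear receptors, occurred 1 time upstream of RARA start site 1 and in none of the other 3 sequences, against 12.1% of all start sites. TATAAA occurred in none of the 4, against 10.7% of all. The 3 RARA sequences held 11, 15 and 16 CpG and the STOML1 sequence 24, where the median of all start sites was 11. The STOML1 sequence thus had more CpG than 76.3% of start sites. These letter matches describe sequence and do not show binding.

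The H3K4me3 peak calls at the PML start changed form with maltonis. Each of the 3 untreated libraries had 2 H3K4me3 peaks there, and each of the 3 maltonis libraries had a single peak that spanned both. In the untreated libraries the upstream peak lay between −2.99 and −2.42 kb from the PML start, next to the distal STOML1 start, and measured 564, 534 and 528 bp. The second untreated peak began within 0.045 kb after the PML start and measured 1460, 1516 and 1408 bp. The single maltonis peak measured 4507, 4578 and 4481 bp and reached from −2.81, −2.92 and −2.84 kb to 1.70, 1.65 and 1.64 kb from the start. The widened peak therefore covered the interval between the distal STOML1 start and PML, which no untreated library had called. Reads in this interval were not measured in either condition, so it may hold H3K4me3 signal in untreated cells too.

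**Figure D1:**
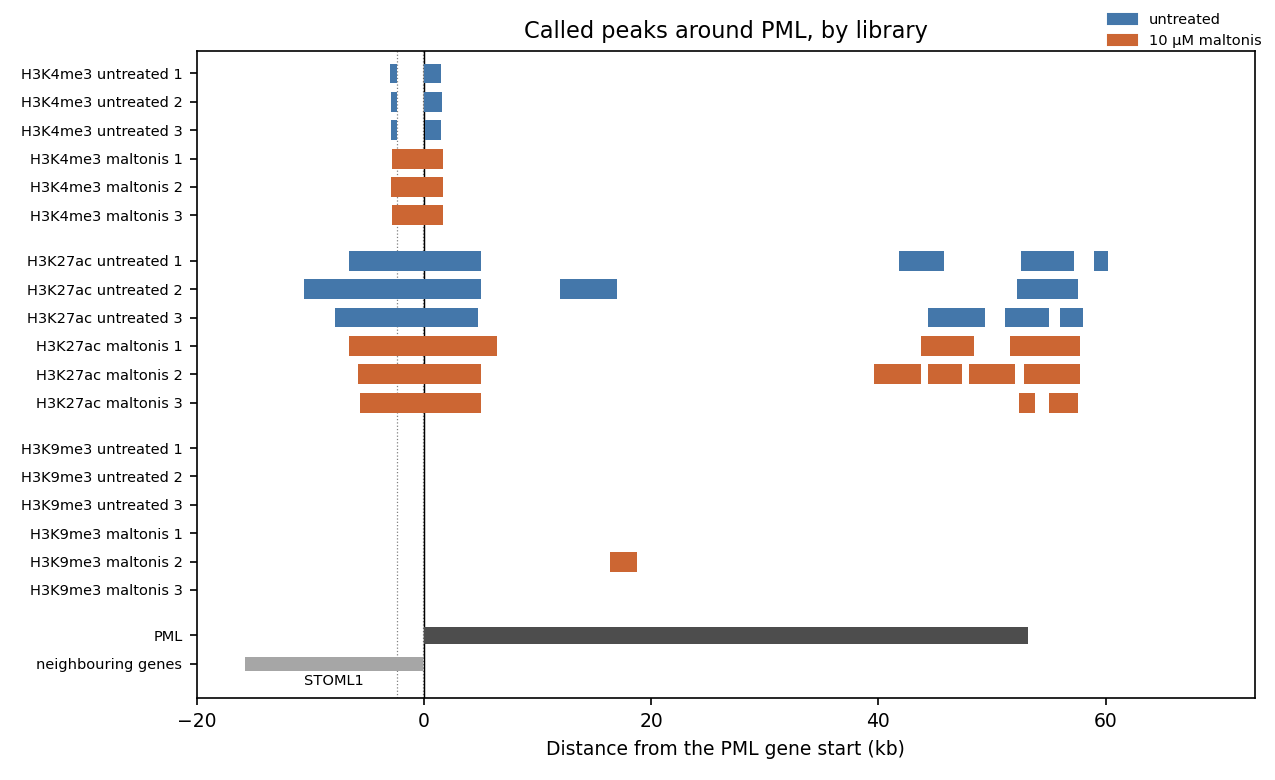
Peaks of each library in the PML window plotted against distance from the PML gene start in kb, with untreated libraries in blue and maltonis libraries in orange; dotted lines are RefSeq STOML1 starts and grey bars are genes. The 2 H3K4me3 peaks of each untreated library are replaced by 1 peak in each maltonis library, while the H3K27ac island over the start is present in all 6.

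The length under H3K4me3 peaks in the PML window was 2.02, 2.05 and 1.94 kb in untreated libraries and 4.51, 4.58 and 4.48 kb in maltonis libraries. The conditions did not overlap, and the means were 2.00 ± 0.060 and 4.52 ± 0.050 kb (SD, n = 3 each; exact two-sided permutation test, p = 0.1, the smallest value that 3 against 3 libraries allow, so that p cannot reach 0.05 in any such comparison here). Of 90 kb tiles of the genome with an H3K4me3 peak, 27.9% had a greater length in every maltonis library. A longer called region in every maltonis library was common for this mark, at 54.8% of the 12470 H3K4me3 regions called in all 6 libraries, and the median region was 1.14 times as long with maltonis. The PML region was 2.26 times as long, and 78 of the 12470 regions, or 0.626%, had a larger ratio. At least 2 peaks in every untreated library and 1 in every maltonis library occurred in 13 regions, the PML start among them, which is 0.104% of all shared regions and 52.0% of the 25 regions that had at least 2 peaks in every untreated library. The opposite, at least 2 peaks in every maltonis library and 1 in every untreated library, occurred in 2 regions (0.0160%).

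By width, the widest peak of the PML window ranked 7125, 6454 and 7359 in the untreated lists and 100, 107 and 121 in the maltonis lists. Those places are the widest 37.2 to 41.4% of untreated peaks and the widest 0.610 to 0.756% of maltonis peaks. The stretch called in all 3 maltonis libraries and in no untreated library was chr15:74284597-74287042 (hg19), 2446 bp long, ending 0.028 kb after the PML start. With a further 90 bp at the downstream edge, bases called only with maltonis made up 54.1% of the bases under any H3K4me3 peak in the window, compared with 4.33% across the genome. Bases called only in untreated cells came to 21 bp, or 0.448%, compared with 1.16% across the genome.

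The widened H3K4me3 peak was lower than the untreated peak at the PML start, but not lower than the untreated upstream peak. Fold enrichment over the caller's local background, a ratio given for each peak, was 4.38, 4.46 and 4.66 in the untreated PML start peaks and 3.59, 3.64 and 3.60 in the maltonis peaks. All 3 maltonis values lay below those of the untreated start peaks (means 4.50 ± 0.144 and 3.61 ± 0.026, SD, n = 3 each; exact permutation p = 0.1). The upstream untreated peaks, which the maltonis peak also spanned, had lower values of 3.24, 2.87 and 2.94. By the highest peak of each region, lower fold enrichment in every maltonis library held for 52.8% of shared H3K4me3 regions. The direction at PML was thus that of most regions. The ratio at PML was 0.802, against a median of 0.906 over all regions, and 16.6% of regions had a lower ratio. The highest −log10 q in the region, the significance given by the caller, was 46.4, 42.7 and 52.1 in untreated and 29.7, 38.3 and 29.7 in maltonis libraries. Ranked within its own list, the region stood at the 74.8th, 75.7th and 83.3rd percentile of peak strength without maltonis and at the 71.4th, 71.8th and 68.8th with it. A lower percentile in every maltonis library was seen in 37.6% of regions. MACS2 reports fold enrichment as a mean over a broad peak, so length and height are not separate measurements.

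At RARA, no H3K4me3 peak of any of the 6 libraries lay within 2 kb of the annotated gene start. The H3K4me3 of the gene lay instead at 9.0 kb into it, next to RARA start site 2, the start with 5 GC boxes upstream. This peak (chr17:38474432-38478423 when joined over libraries, hg19) was called in all 6 libraries. Its fold enrichment was 5.40, 5.17 and 5.49 in untreated libraries and 4.68, 4.28 and 4.36 in maltonis libraries. The conditions did not overlap (means 5.35 ± 0.162 and 4.44 ± 0.212, SD, n = 3 each; exact permutation p = 0.1). The ratio of 0.830 was below the median of 0.906 over all regions, with 23.3% of regions lower still.

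**Figure D2:**
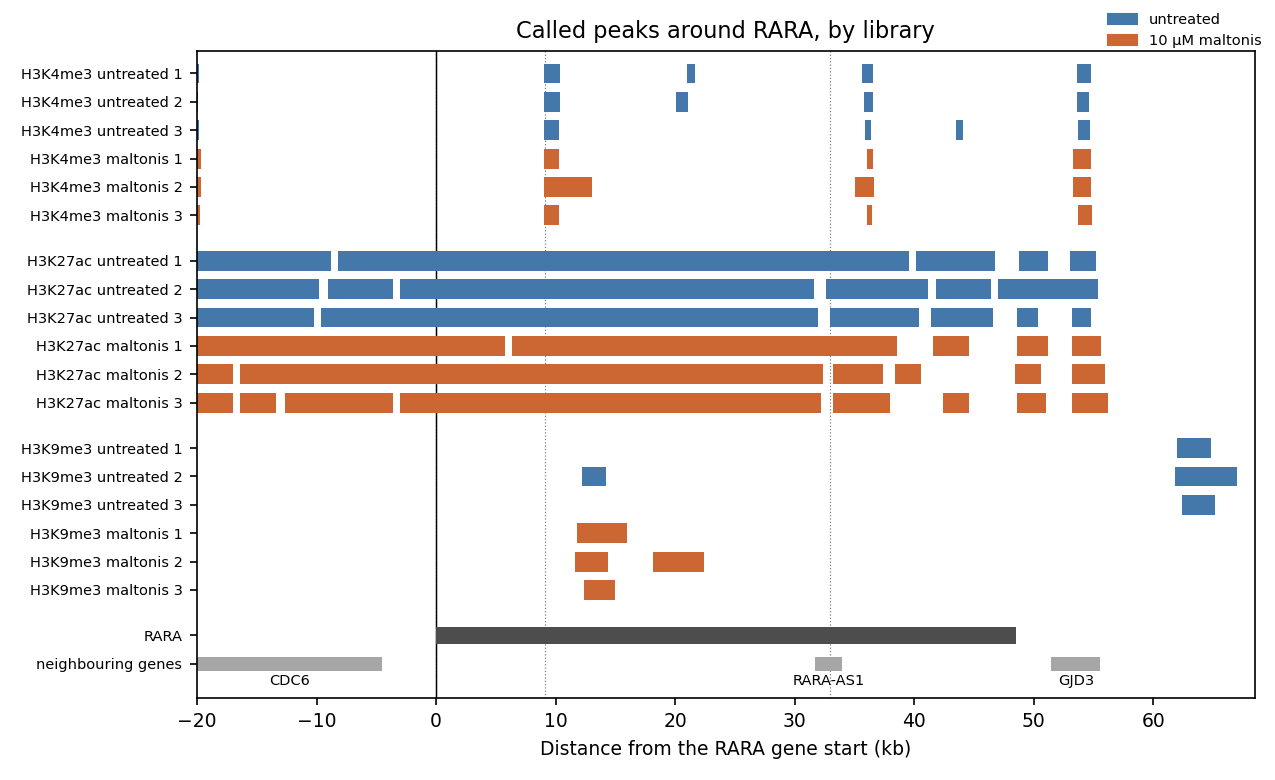
Peaks of each library in the RARA window plotted against distance from the RARA gene start in kb, drawn as far as the window edges, with untreated libraries in blue and maltonis libraries in orange; dotted lines are RefSeq RARA start sites 2 and 3. H3K4me3 is absent at the gene start and present at 9.0 kb in all 6 libraries, and H3K27ac covers most of the gene in all 6.

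The caller's significance, which is on another scale than fold enrichment, was also lower with maltonis. It comes from the same reads and is not separate evidence. The share of all regions with such a separation in −log10 q was not computed, here, above or below. Whether these peaks differ from other regions in it is not known. The −log10 q of the 9.0 kb peak was 75.6, 66.5 and 72.6 in untreated and 39.7, 38.3 and 33.2 in maltonis libraries. The place of this peak in its own list moved from the 90.3rd, 90.2nd and 92.7th to the 81.9th, 71.8th and 72.9th percentile of peak strength. The mean percentile fell from 91.1 ± 1.41 to 75.6 ± 5.55 (SD, n = 3 each; exact permutation p = 0.1), a change of the kind seen in the 37.6% of shared regions given above. The peak did not widen as a rule. It measured 1320, 1344 and 1210 bp in untreated libraries and 1208, 3967 and 1292 bp in maltonis libraries. Maltonis library 2 alone had the long form, so that the lengths overlapped between conditions (exact permutation p = 0.9).

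**Figure D3:**
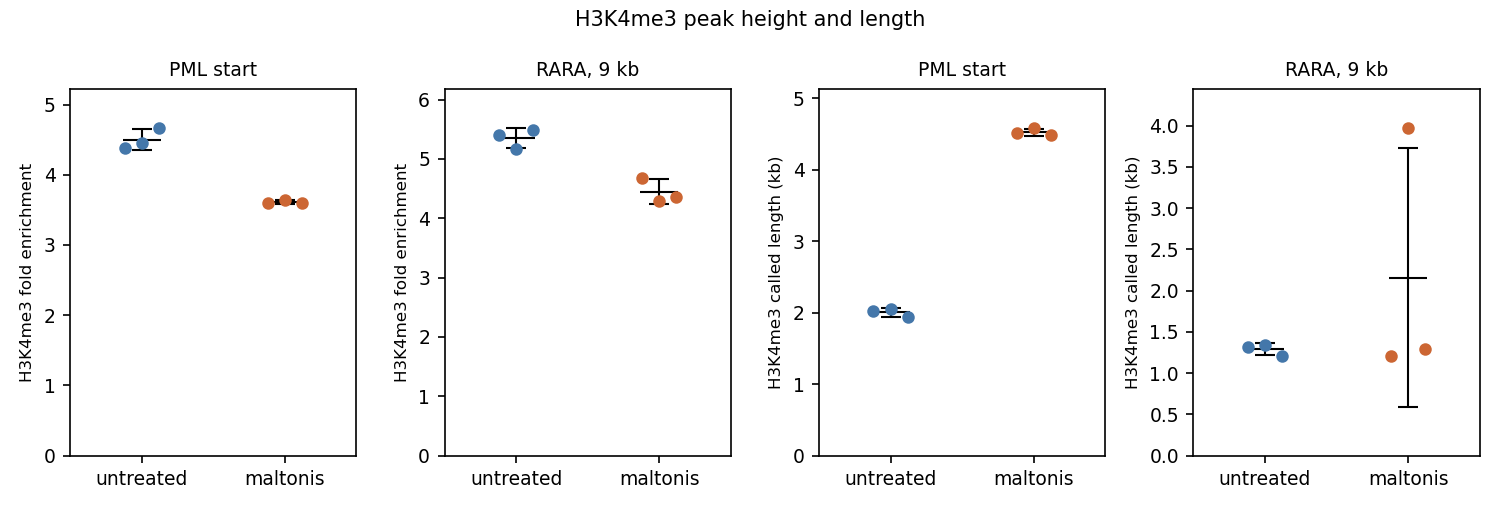
H3K4me3 fold enrichment of the highest peak (left pair of panels) and called length in kb (right pair) of the region at the PML start and of the RARA peak at 9.0 kb, with a point for each library and bars for the mean ± SD of 3. The highest fold enrichment is lower with maltonis at both, while length is greater in all 3 maltonis libraries only at PML.

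The remaining H3K4me3 peaks of RARA were weak. A peak at 35.0 kb, beyond RARA start site 3, was called in all 6 libraries with fold enrichments of 3.24, 3.41 and 3.35 untreated and 3.26, 2.66 and 2.63 with maltonis, which overlapped between conditions. Its −log10 q, 4.09, 4.12 and 3.70 untreated and 3.4, 1.58 and 1.74 with maltonis, did not overlap, and neither did its percentile of strength, which fell from a mean of 31.4 ± 0.572 to 15.6 ± 10.9 (SD, n = 3 each; exact permutation p = 0.1 for both). These values were low in both conditions, and a lower percentile in every maltonis library was seen in 37.6% of shared regions. A peak at 20.0 kb was called in untreated libraries 1 and 2 with −log10 q of 1.89 and 1.52, close to the lowest value of about 1.0 in these lists, and in no maltonis library. One at 43.5 kb was called in untreated library 3 alone, with a −log10 q of 1.52. With these, each untreated library had 5 H3K4me3 peaks in the RARA window and each maltonis library had 4. The summed length was 4.18, 4.12 and 3.57 kb untreated and 3.56, 7.38 and 3.19 kb with maltonis and did not separate the conditions (means 3.96 ± 0.334 and 4.71 ± 2.32 kb, SD, n = 3 each; exact permutation p = 1.0). The mean was higher with maltonis through library 2, and without it the difference was −0.58 kb. Neither the 1 H3K4me3 region of the PML window nor any of the 6 of the RARA window was called in all 3 libraries of 1 condition and in none of the other, which 1.66% of all H3K4me3 regions were for untreated and 0.836% for maltonis libraries.

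The other H3K4me3 peaks of the RARA window belonged to its neighbours by position. The upstream one, from −21.4 to −19.7 kb, lay at the start of CDC6, a DNA replication licensing gene, and reached into the window by 89 to 308 bp. It was the strongest H3K4me3 peak in the window, with fold enrichments of 6.18, 6.15 and 5.80 untreated and 5.64, 5.90 and 5.86 with maltonis, which overlapped. Its percentile of strength was 95.3, 95.1 and 93.5 untreated and 97.4, 97.3 and 97.7 with maltonis. Higher in every maltonis library, as there, was found in 19.4% of regions. The percentiles are places in lists of different lengths, and the −log10 q of the CDC6 peak overlapped between conditions too (exact permutation p = 0.7). A peak at 53.3 kb, within GJD3, a connexin gene, was called in all 6 libraries, with fold enrichments of 3.29, 4.18 and 3.99 untreated and 3.63, 3.52 and 3.79 with maltonis. Because the CDC6 peak lies across the window edge, the widest H3K4me3 peak of the window was CDC6 in 5 libraries (1526, 1458 and 1484 bp untreated, 1634 and 1598 bp in maltonis libraries 1 and 3) and the 3967 bp RARA peak in maltonis library 2. These widths did not overlap between conditions (exact permutation p = 0.1), but they come from different peaks. A longer called region in every maltonis library held for 54.8% of shared H3K4me3 regions. The CDC6 peak was 1.09 times as long with maltonis, against a median of 1.14, and 62.4% of regions had a larger ratio.

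H3K27ac was called at both genes in every library, in very different amounts. In the PML window the summed length was 21.4, 26.0 and 23.4 kb untreated and 23.8, 27 and 14.6 kb with maltonis, so the conditions overlapped (means 23.6 ± 2.31 and 21.8 ± 6.44 kb, SD, n = 3 each; exact permutation p = 0.9). In the RARA window it was 70.2, 71.8 and 67.4 kb untreated and 66.0, 63.2 and 62.6 kb with maltonis. Every maltonis library of the RARA window was below every untreated one (means 69.8 ± 2.23 and 63.9 ± 1.81 kb; exact permutation p = 0.1). With equal numbers of peaks per list the conditions overlapped (difference −6.0 kb, exact permutation p = 0.2), and with 50 kb flanks they did too (−4.27 kb, p = 0.5). Among 90 kb tiles of the genome that held an H3K27ac peak, 39.0% were lower in every maltonis library and 4.91% were higher.

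**Figure D4:**
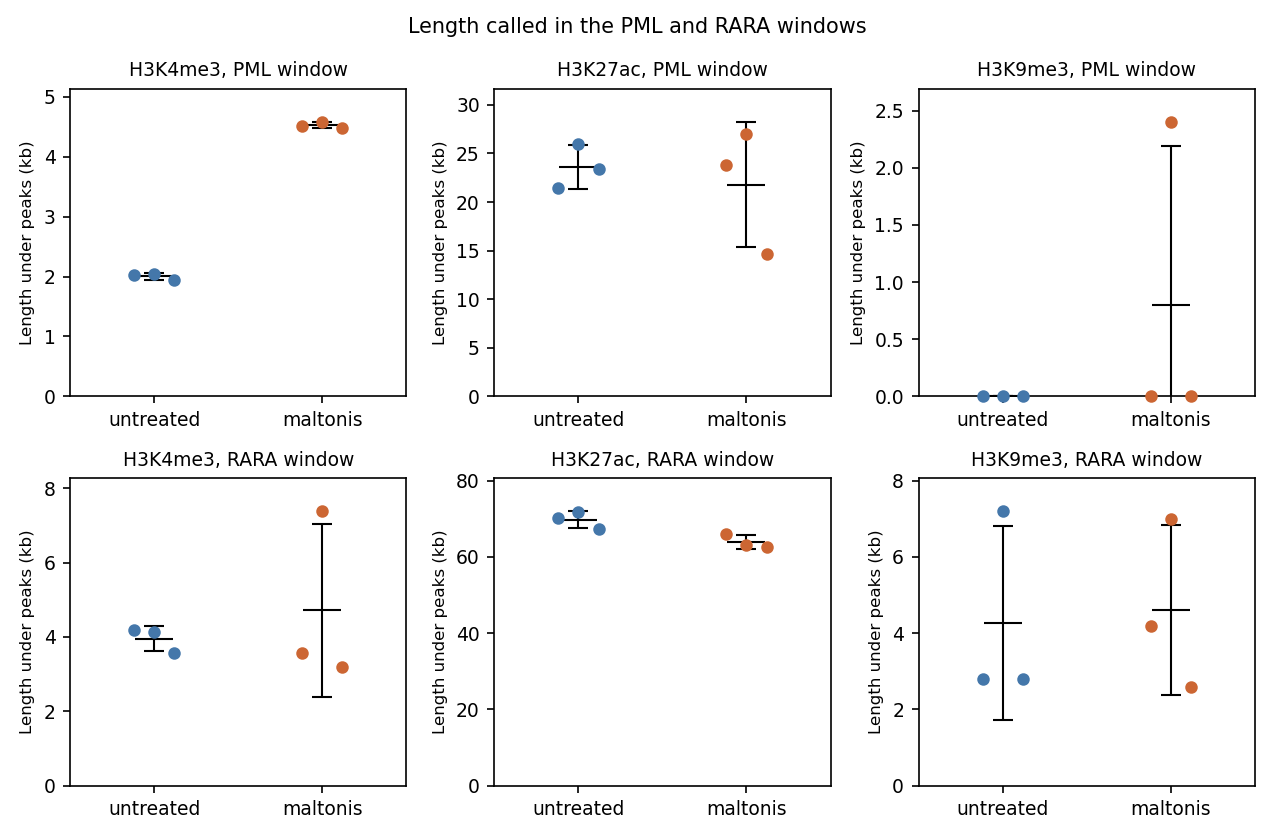
Length under peaks in kb in the PML window (upper panels) and the RARA window (lower panels) for the 3 marks, with a point for each library and bars for the mean ± SD of 3. The conditions separate for H3K4me3 at PML and, in the other direction, for H3K27ac at RARA.

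The H3K27ac at the PML start was an island of 11.6, 15.6 and 12.6 kb in untreated libraries and of 13.0, 10.8 and 10.6 kb in maltonis libraries (chr15:74276401-74293400 when joined, hg19), which also covered both STOML1 starts. It held 1490, 1643 and 1615 reads untreated and 1881, 2092 and 1983 reads with maltonis. Reads were higher in all 3 maltonis libraries, and an edgeR quasi-likelihood test over the 20018 H3K27ac regions called in all 6 libraries gave a log2 fold change of 0.37 (SE 0.034; Benjamini-Hochberg adjusted p = 1.03e-05). This is below the fold change limit of 0.58 (log2) that the study sets together with an adjusted p of at most 0.01, so the region was not called. By both limits 8.18% of regions (1637) were called higher and 19.2% (3840) lower. With called length as an offset, 1178 regions were called higher and 459 lower, the median log2 fold change of all regions moved from −0.01 to 0.16, and the PML value was 0.576 (SE 0.12; edgeR adjusted p = 0.00846), or 0.42 above that median, still not called. At an adjusted p of at most 0.05 without a fold limit, 34.0% of regions were higher, this one among them. By size of fold change the region was not extreme, since 20.1% of regions had a larger ratio of reads and 29.0% had more reads in every maltonis library.

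Per kb of called island, the PML start held 128, 105 and 128 reads in untreated libraries and 145, 194 and 187 reads in maltonis libraries. The conditions did not overlap (means 121 ± 13.3 and 175 ± 26.6 reads per kb, SD, n = 3 each; exact permutation p = 0.1). Higher reads per kb in every maltonis library were found in 25.5% of shared regions. The ratio at PML was 1.45 against a median of 1.08, and 9.28% of regions had a larger ratio. The 2446 bp where H3K4me3 was called only with maltonis lay inside this island in all 6 libraries, so those bases carried called H3K27ac in untreated cells too.

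A weaker H3K27ac region at the 3′ end of PML, from 39.6 to 58.0 kb, was broken into 1 to 4 islands per library. Its reads were 260, 173 and 322 untreated and 333, 539 and 185 with maltonis, and the values overlapped (log2 fold change 0.51, SE 0.33; edgeR adjusted p = 0.193). The fold change rested on single libraries, at 0.14 without maltonis library 2, 0.80 without maltonis library 3 (edgeR adjusted p = 0.0202) and 0.30 without untreated library 2, and it was 0.28 with called length as an offset. The strength percentile of its strongest island, 33.4, 35.4 and 22.8 untreated and 47.0, 47.0 and 45.2 with maltonis, did not overlap (exact permutation p = 0.1). This percentile was likewise higher in every maltonis library in the other H3K27ac regions of both windows called in all 6 libraries. The share of all H3K27ac regions with such a separation was not computed. Whether these regions differ from others in this is therefore not known. The percentiles are places in lists whose lowest scores were 36.2 to 39.9 untreated and 27.1 to 32.7 with maltonis. Further islands at 12.0 and 59.0 kb were called in 1 untreated library each, with island scores of 46.5 and 36.5 where the lowest scores of the untreated lists were 36.2 to 39.9. The body of PML between 6.4 and 39.6 kb thus held no H3K27ac island except in untreated library 2.

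At RARA the islands joined over libraries to a domain of 85.8 kb (chr17:38426401-38512200, hg19), which ran from upstream of CDC6 to near the 3′ end of RARA. Its widest single island was 47.8, 34.6 and 41.6 kb untreated and 44.8, 48.8 and 35.2 kb with maltonis, which overlapped (exact permutation p = 0.7). These widths ranked 100, 300 and 176 in the untreated lists and 101, 66 and 139 in the maltonis lists, within the widest 0.192 to 0.860% of H3K27ac islands. The RARA domain was therefore among the broadest acetylated stretches of these cells in both conditions. In maltonis library 1 the widest island lay over CDC6 and the first 5.8 kb of RARA, and in the other 5 libraries the widest one covered RARA start sites 1 and 2.

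Reads in the RARA domain were 7090, 7191 and 7300 untreated and 7430, 8315 and 7908 with maltonis. All 3 maltonis libraries were higher, by a log2 fold change of 0.18 (SE 0.020; edgeR adjusted p = 4.25e-05), again below the fold limit, and 35.3% of shared regions had a larger ratio. Reads per kb were 92.6, 94.4 and 91.9 untreated and 92.9, 121 and 107 with maltonis and overlapped (exact permutation p = 0.2). The domain thus held more reads, and the length under islands in its window was shorter. Its reads include islands over CDC6 and beyond the window edge, and the share of the gain within RARA was not computed. Untreated library 2 and maltonis library 3 both have an island border at −3.0 kb. Upstream of it, islands held 1561 and 223 reads untreated, and 1741, 108 and 380 with maltonis. From it on, they held 4406, 534 and 217 untreated, and 4745, 433 and 83 with maltonis. With called length as an offset the log2 fold change was 0.24, or 0.08 above the median of all regions. None of the 4 H3K27ac regions of the PML window and the 2 of the RARA window was called in all 3 libraries of 1 condition and in none of the other, against 6.04% of H3K27ac regions for untreated and 1.65% for maltonis libraries.

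**Figure D5:**
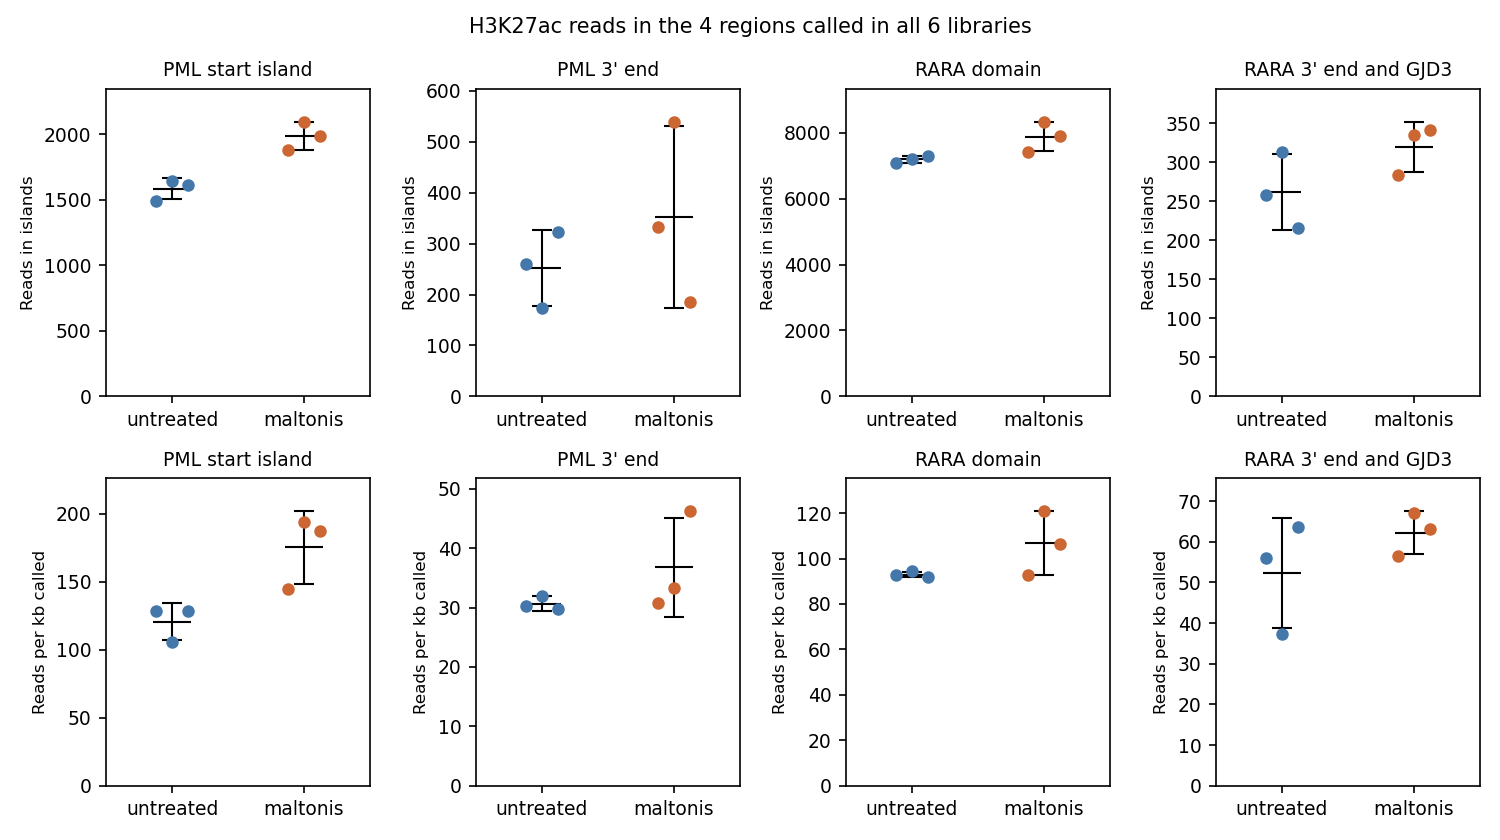
H3K27ac reads (upper panels) and reads per kb of called island (lower panels) in the 4 regions called in all 6 libraries, with a point for each library and bars for the mean ± SD of 3; the reads are deposited counts, not scaled for library size. The conditions separate in both measures at the PML start only.

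The length lost at RARA lay in the 3′ part of the gene. Within the gene, islands covered 95.3, 95.5 and 92.0% of the bases in untreated libraries and 84.5, 80.2 and 80.8% in maltonis libraries (means 94.2 ± 1.96 and 81.9 ± 2.35%, SD, n = 3 each; exact permutation p = 0.1). Of the 90 kb tiles, which are longer than the gene, 39.0% had a shorter length in every maltonis library. The stretch chr17:38510001-38511800 (hg19), 44.6 to 46.4 kb into the gene, was under an island in all 3 untreated libraries and in no maltonis library. Its 1800 bp are 2.37% of the bases under any H3K27ac island in the window, compared with 4.91% across the genome. The islands at this end had low scores: 180, 158 and 156 untreated, and 43.2 and 47.2 in maltonis libraries 1 and 3, whose islands ended at 44.6 kb. Maltonis library 2 had its last island of the gene body at 38.4 to 40.6 kb, with a score of 30.9 where the lowest score in its list was 30.2.

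Just beyond this gap lay a region from 47.0 to 56.2 kb, over GJD3 and, in untreated library 2, the 3′ end of RARA. In the other libraries its first island began at 48.4 to 48.8 kb, and the gene is 48473 bp long. The region held 258, 313 and 216 reads untreated and 283, 335 and 341 with maltonis. The values overlapped (log2 fold change 0.33, SE 0.14; edgeR adjusted p = 0.0670). Its highest island score did separate, at 174, 261 and 197 untreated and 1093, 1124 and 1112 with maltonis. In 5 libraries the score belongs to a short island over GJD3, where the weak H3K4me3 peak was called, and in untreated library 2 to an island of 8.4 kb over the whole region. Within their lists they stood at the 52.2nd, 56.7th and 52.2nd percentile untreated and at the 65.6th, 66.6th and 68.0th with maltonis. The short island held 148 and 146 reads in untreated libraries 1 and 3 and 164, 216 and 193 with maltonis. Per kb these were 67.3 and 91.3 reads against 68.3, 77.1 and 64.3, so its read density overlapped between conditions. The score did not follow density: untreated library 3 had the highest density and a score of 197. Maltonis library 3 had the lowest density and a score of 1112. The size of the score difference is therefore not a measure of acetylation. The share of all H3K27ac regions with such a separation in score or percentile was not computed.

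H3K9me3 was scarce at both genes. In the PML window the only peak was in maltonis library 2, 16.4 kb into the gene, with 38 reads and a score of 34.1 where the lowest score in its list was 32.7. The other 5 libraries had none. The PML start, where the called H3K4me3 widened, carried no called H3K9me3 in any library.

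In the RARA window 3 H3K9me3 regions were called, none of them in all 6 libraries, so the read test, which takes regions called in all 6, gives no value for them. The one within the gene that recurred lay at 11.6 to 16.0 kb (chr17:38477001-38481400, hg19), after the H3K4me3 peak at start site 2. It was called in all 3 maltonis libraries, with 66, 58 and 49 reads and scores of 56.6, 59.8 and 54.1. In untreated cells it was called in library 2 alone, with 33 reads and a score of 29.1, next to the list's lowest score of 28.8. Regions called in all 3 maltonis libraries and at most 1 untreated library made up 1.85% of the 46996 H3K9me3 regions. The whole region lay under H3K27ac islands in all 6 libraries, and its first part, up to 13.0 kb, under the long H3K4me3 peak of maltonis library 2. A further H3K9me3 region at 18.2 kb was called in maltonis library 2 alone, with 55 reads.

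Within the RARA gene, H3K9me3 thus covered 0, 2.0 and 0 kb untreated and 4.2, 7.0 and 2.6 kb with maltonis, without overlap (means 0.667 ± 1.15 and 4.60 ± 2.23 kb, SD, n = 3 each; exact permutation p = 0.1). Among 90 kb tiles with an H3K9me3 peak, 4.45% were higher in every maltonis library and 9.09% lower. These tiles are longer than the gene, and over the whole RARA window the conditions overlapped. The last region, 61.8 to 67.0 kb from the RARA start in the downstream flank (chr17:38527201-38532400, hg19), was called in all 3 untreated libraries and in no maltonis library, a pattern found in 2.32% of H3K9me3 regions, while the reverse was found in 0.781%. It held 40, 72 and 42 reads with scores of 31.7, 62.1 and 35.3 and lay between GJD3 and TOP2A, outside any H3K4me3 or H3K27ac peak. Over the whole window the opposite changes left 2.8, 7.2 and 2.8 kb untreated and 4.2, 7.0 and 2.6 kb with maltonis, which overlapped (exact permutation p = 1.0). Which region was confined to 1 condition depended on the weakest islands: with the same lowest score of 33.6 in all 6 lists, the region at 61.8 kb was no longer called in every untreated library, and the region at 11.6 kb was called in all 3 maltonis libraries and no untreated one, a pattern of 0.781% of regions at the deposited scores. Without untreated library 2, both regions were confined to 1 condition. These read numbers are small, and an uncalled library may hold reads that did not pass the caller's limit.

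Across the libraries as wholes, maltonis lists held fewer H3K4me3 peaks (15841 to 16383 against 17335 to 17755) over more bases (25.9 against 24.0 to 24.5 Mb), and fewer bases under H3K27ac (172 to 185 against 218 to 230 Mb). Reads in H3K27ac islands numbered 17974940 to 20773316 with maltonis and 19449049 to 20340061 without, and reads in H3K9me3 islands 2595814 to 3219805 and 3137349 to 3366296. The part these whole-list differences have in the results at PML and RARA was not tested. The upstream edge of the RARA window cut the leftmost H3K27ac island in all 6 libraries, with 2978 to 25778 bp of islands of 8800 to 44800 bp inside it. The CDC6 peak of H3K4me3 overlapped the same window by 89 bp at the least, and the nearest H3K4me3 peak outside that edge lay 68.6 to 68.8 kb away. The nearest H3K4me3 peak upstream of the PML window lay 46.3 to 46.6 kb beyond its edge. The lists name no genes and no hg19 exon table was used, so whether a peak is exonic or intronic, and the levels of NB4 marker genes, were not analysed here.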

How the data were processed

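ChIP-seq peak lists of 18 NB4 libraries were used as deposited, 1 list per library, on hg19 per the labels. The submitters' processing notes name BWA, SAMtools, MACS2 and SICER, without versions, and the study's methods name epic2. For H3K4me3 the authors deposited MACS2 broad peaks with a score, a fold enrichment ratio and −log10 p and −log10 q values. For H3K27ac and H3K9me3 the authors deposited islands built from 200 bp windows, each with a raw read count and an island score. Control libraries were not used here. Groups and replicate numbers came from sample titles.

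Peaks of the 6 libraries of a mark were joined where they shared at least 1 bp, on chromosomes 1 to 22 and X. Library values were compared by exact two-sided permutation over 20 assignments, and a difference was called where the conditions did not overlap. Island counts were summed over regions called in all 6 libraries and tested with edgeR 4.0.16 (TMM, quasi-likelihood, Benjamini-Hochberg; called at an adjusted p of at most 0.01 and a log2 change of at least 0.58), with DESeq2 1.42.0 as an alternative. Counts refer to islands whose borders differ between libraries, so a longer island holds more reads. R 4.3.3 and Python 3.11.15 were used, and the steps were tested on simulated data. Replicates were not paired. Named regions were those at or nearest the gene start, the widest, those of 1 condition only and those passing the read test; the RARA peak at 9.0 kb, single-library and neighbouring-gene peaks were named after their values were seen. The members and lists were chosen with earlier results of these data known.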

Additional observations from a re-analysis of the deposited data

How the results depend on the processing

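Differences below are maltonis minus untreated. Of 291 alternative values of 27 results, 261 kept their direction and side of the call, or their count. This number includes alternatives that could not differ, so it is not a measure of how firm the results are. The filter on low counts kept all 20018 H3K27ac regions, and the looser limit uses the same fold changes. Several windows also had no region of 1 condition under any setting. In the PML window the H3K27ac length, −1.8 kb, changed sign with the strongest 75% of peaks (1.0 kb) and in the gene without flanks (0.867 kb); the cause was not tested. In the RARA window the H3K27ac length overlapped between conditions with equal numbers of peaks (−6.0 kb) and with 50 kb flanks (−4.27 kb). The H3K9me3 length and widest island at PML, 0.8 kb from 1 peak, were 0 with the strongest 75% of peaks. The H3K9me3 length at RARA separated the conditions in the gene without flanks (3.93 kb). H3K9me3 at RARA had 1 region of 1 condition with the strongest 75% of peaks, with equal numbers and with a common lowest score (an alternative chosen after seeing the data), but of maltonis in place of untreated. Without a fold limit and at an adjusted p of at most 0.05, edgeR called 1 H3K27ac region higher at PML and 1 at RARA. The region beyond the RARA 3′ end had an adjusted p of 0.0421 with DESeq2 and 0.0227 to 0.203 without 1 library. Without 1 library each, both H3K9me3 values at PML ranged from 0 to 1.2 kb, the H3K4me3 length at RARA ranged from −0.582 to 1.51 kb and its regions of 1 condition from 0 to 1, the H3K27ac length at PML from −4.40 to 1.80 kb, the widest H3K27ac island at PML from −2.63 to −0.633 kb and at RARA from −1.77 to 5.47 kb, the H3K9me3 length at RARA from −0.867 to 1.80 kb, its widest island from −0.333 to 0.867 kb and its regions of 1 condition from 1 to 2. Within each mark, same-numbered untreated and maltonis replicates did not deviate together (correlations from −0.020 to 0.030). These correlations cannot show whether such replicates shared a culture or a batch. With the replicate block the log2 fold change of the PML start island was 0.37 and of the RARA domain 0.18, and no call changed. Exact sign-flip tests of 3 pairs cannot go below p = 0.25. The H3K9me3 read test had no region in these windows, and 3 libraries per condition limit every comparison.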
